A study of Mus musculus with 79 samples.

Results

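The Ifi200 genes of mouse chromosome 1 were examined in adult hypothalamus, with Mndal, which had the lower expression in Dnmt3a Δ/D329A mice that led to the choice of the group, at its centre. The 7 members (Mndal, Mnda, Ifi203, Ifi204, Ifi205, Aim2 and Pyhin1) were chosen by name with the expression contrast between the genotypes known. All 7 were found among the 25965 rows of the expression table. The ChIP-seq table was read over the stretch from the first to the last member, chr1:173350879-174031755 of GRCm38, which is 680877 bp long and holds 681 of the 2725549 tiles of the genome.

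The study asked what a point mutation in the PWWP domain of the DNA methyltransferase DNMT3A does in the mouse. Both genotypes used here were on C57BL/6Babr and were sampled at 14 weeks of age, and each replicate is 1 animal. In Δ/D329A mice the maternal Dnmt3a allele lacks exon 18 (Δ, recombined in oocytes by Cre under the Zp3 promoter) and the paternal allele carries D329A, so that the mutant protein is the only functional DNMT3A, while +/+ mice carry 2 wild-type alleles. Expression was measured by RNA-seq of whole hypothalamus in 5 +/+ and 4 Δ/D329A animals, and H3K4me3, H3K27me3, H3K36me3 and input in 3 animals of each genotype per assay. The study's legends differ on the sex of the RNA-seq animals (female in one, male in another) and give the ChIP-seq animals as male, and whether expression and chromatin come from the same animals is not given in the sources used here. Single mutants (Δ/+ and +/D329A) are not among the libraries used here, and an effect of the Δ allele and one of D329A cannot be told apart.

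Proteins of the Ifi200 (PYHIN) family carry a pyrin domain for assembly with partners, a HIN domain that binds DNA, or both. Many of them are induced by interferons and are best known from macrophages and other blood cells. AIM2 senses DNA in the cytosol and assembles an inflammasome with the adaptor ASC and caspase-1, whereas several of the other proteins reside in the nucleus and have been linked to DNA sensing, transcription and cell growth. The genes have arisen by repeated duplication, lie side by side in the mouse and differ in number and sequence between strains, so that near-identical stretches are frequent among them.

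Upstream sequences are shown for 5 of the starts, because 4 members share a motif before a start that Aim2 lacks. Pyhin1, which lacks it too, is not printed. RefSeq (GRCm38.p6) gives 8 starts for 6 of the members, named Mndal, Ifi203, Ifi205, Aim2, Ifi211 (the Mnda row) and Ifi209 (the Pyhin1 row). Ifi204 has no entry in the sequence table used. The 250 bases before each start are printed 5′ to 3′ with motif matches in capitals. They come from chr1:173880188-173880437 (Mndal), chr1:173942493-173942742 (Ifi203), chr1:173913047-173913296 (Ifi211) and chr1:174031756-174032005 (Ifi205), all on the minus strand, and from chr1:173420354-173420603 on the plus strand (Aim2).
Mndal: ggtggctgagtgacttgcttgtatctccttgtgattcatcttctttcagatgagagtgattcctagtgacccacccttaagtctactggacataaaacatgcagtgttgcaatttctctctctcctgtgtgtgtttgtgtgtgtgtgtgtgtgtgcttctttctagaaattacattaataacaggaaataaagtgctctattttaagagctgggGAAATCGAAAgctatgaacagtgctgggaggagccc
Ifi203: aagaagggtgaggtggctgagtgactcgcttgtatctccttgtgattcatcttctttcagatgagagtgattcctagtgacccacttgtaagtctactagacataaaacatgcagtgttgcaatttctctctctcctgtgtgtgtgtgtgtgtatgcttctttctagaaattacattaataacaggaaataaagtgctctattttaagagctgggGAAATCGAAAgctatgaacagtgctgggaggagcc
Ifi211: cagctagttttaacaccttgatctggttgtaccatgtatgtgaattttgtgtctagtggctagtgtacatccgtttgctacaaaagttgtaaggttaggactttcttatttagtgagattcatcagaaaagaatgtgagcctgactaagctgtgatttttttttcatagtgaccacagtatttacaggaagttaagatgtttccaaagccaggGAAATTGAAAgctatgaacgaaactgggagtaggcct
Ifi205: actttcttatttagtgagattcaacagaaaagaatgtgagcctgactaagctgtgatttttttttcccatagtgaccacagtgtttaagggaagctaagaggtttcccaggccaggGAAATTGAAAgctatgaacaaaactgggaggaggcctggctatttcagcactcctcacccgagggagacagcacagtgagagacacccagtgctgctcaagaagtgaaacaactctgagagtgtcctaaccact
Aim2: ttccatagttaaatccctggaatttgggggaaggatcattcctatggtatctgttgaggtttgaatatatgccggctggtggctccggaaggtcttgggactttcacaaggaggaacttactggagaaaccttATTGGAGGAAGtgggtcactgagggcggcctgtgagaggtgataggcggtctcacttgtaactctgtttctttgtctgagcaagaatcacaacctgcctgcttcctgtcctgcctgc
The capitals in the first 4 sequences mark the core of the interferon-stimulated response element (ISRE), searched as GAAANNGAAA on both strands. It was present at 5 of the 8 starts and in 2.98% of all 32841 promoters of the same length. Counted from the start, it spanned −36 to −27 in Mndal, −35 to −26 in Ifi203, −37 to −28 in Ifi211 and −134 to −125 in Ifi205. The second Mndal start, at 173879958, had a match on the other strand (TTTCTCTTTC, −54 to −45). In Aim2 the capitals mark CCAAT on the other strand (ATTGG) and a PU.1 site (GAGGAAG), which share 1 base. No ISRE core was found at the Aim2 or Ifi209 start or at the second Ifi203 start, at 173942672.

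Of the other motifs searched on both strands, the interferon-gamma element TTCNNNGAA was at 0 of the 8 starts and in 7.02% of all promoters. TATAAA was at the Ifi209 start only and in 12.4% of promoters, GAGGAAG at the Aim2 start only and in 10.6%, and CCAAT at the Aim2 start and the second Mndal start and in 33.9%. These matches describe letters and not bound sites. Aligned end to end, the printed Mndal and Ifi203 sequences were identical at 89.3% of positions, and the next highest value was 56.8%, for Ifi203 and Ifi211. Such an alignment scores shifted sequences low. Ifi211 and Ifi205 share a long stretch before and across the motif, at different distances from the start, and reached only 48.7%. The 8 starts held 0 to 4 CpG in 250 bases, against a median of 6 over all promoters. The whole cluster held 5.54 CpG per kb at a GC content of 39.0%, against 7.70 per kb and 41.2% over chromosome 1.

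In expression, Mndal was the only member whose groups did not overlap. Mndal (chr1:173857221-173942491, minus strand) had 12, 10, 13, 12 and 21 reads in the +/+ libraries and 2, 0, 3 and 2 in the Δ/D329A libraries. These correspond to 0.342, 0.335, 0.509, 0.406 and 0.653 RPKM (reads scaled to exon length and library size) in +/+ and to 0.0716, 0, 0.118 and 0.0943 RPKM in Δ/D329A. Every Δ/D329A library was below every +/+ library. The +/+ mean was 0.449 ± 0.134 RPKM (SD, n = 5), and the Δ/D329A mean 0.0711 ± 0.0511 RPKM (SD, n = 4), or 15.8% of it. On the log2 RPKM scale, where a library without a read stands at 0.9 reads, the difference was −2.49 (standard error 0.31).

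The members were chosen with this difference known, so that no test of it is given. At their depth, the Δ/D329A libraries would have held between 9.01 and 12.5 Mndal reads at the +/+ mean. Expression was tested in 17839 genes with limma. At an adjusted p under 0.01, 0.0224% of them (4 genes) were lower in Δ/D329A and 0.107% differed in either direction, which is given as background only. Without 1 library at a time, 0 to 1 genes were called lower. Every Δ/D329A library lay below every +/+ library in 1.24% of the genes tested. Mndal was a weakly expressed gene even in +/+, where 73.5% of the genes tested were expressed at a higher log2 RPKM.

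**Figure D1:**
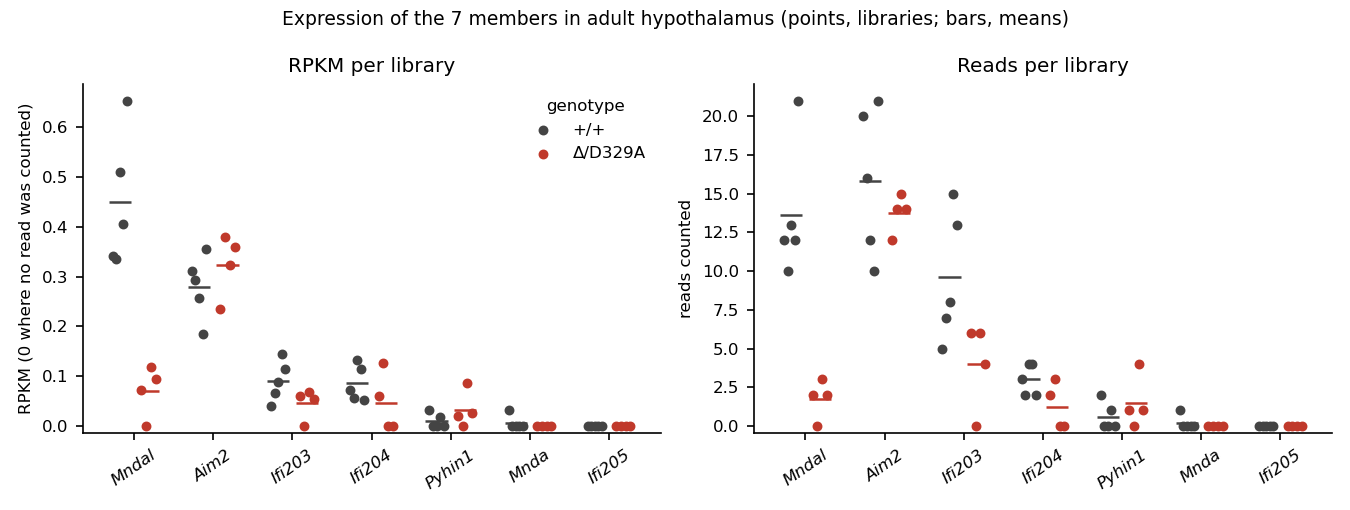
Expression of the 7 members in each library, as RPKM (left) and as reads counted (right), with +/+ in grey (n = 5), Δ/D329A in red (n = 4) and bars at the means. For Mndal the 4 Δ/D329A points, at 0 to 3 reads, sit below the 5 +/+ points, at 10 to 21 reads, whereas the groups overlap for the other members.

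The plot of the members' levels by library also shows how few reads most members had. Aim2, the cytosolic DNA sensor (chr1:173350879-173466040, plus strand), had 20, 16, 12, 10 and 21 reads in +/+ and 12, 14, 15 and 14 in Δ/D329A. Per length, the +/+ level of Aim2 was 0.280 ± 0.064 RPKM (SD, n = 5) and the Δ/D329A level 0.324 ± 0.065 RPKM (SD, n = 4), which is 0.22 higher on the log2 scale (standard error 0.24). The groups overlapped, and 78.2% of the genes tested were expressed at a higher level in +/+. Mndal and Aim2 were the only members that reached 0.1 RPKM in 4 or more libraries and therefore the only ones in the fit.

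Ifi203, an interferon-inducible gene whose start lies next to the first exon of Mndal (chr1:173920407-173942672), had 5, 7, 8, 15 and 13 reads in +/+ and 6, 0, 6 and 4 in Δ/D329A. Its level was 0.0912 ± 0.0405 RPKM (SD, n = 5) in +/+, against 0.0455 ± 0.0309 RPKM (SD, n = 4) in Δ/D329A, with overlapping groups. Ifi204, which encodes the nuclear and cytoplasmic protein p204 (chr1:173747293-173766876), had 3, 2, 4, 4 and 2 reads in +/+ and 2, 3, 0 and 0 in Δ/D329A, so that its groups overlapped as well. Pyhin1 (chr1:173630859-173647928) was near the limit of detection, with 3 reads in all 5 +/+ libraries together and 6 in the 4 Δ/D329A libraries. Mnda had 1 read in 1 +/+ library and 0 in the others, and Ifi205 had 0 reads in all 9 libraries. In these 3 members a difference between the genotypes was not detectable at this depth.

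In +/+ the order of the mean RPKM was Mndal, Aim2, Ifi203, Ifi204, Pyhin1 and Mnda, with Ifi205 at 0. The ranges of Mndal (0.335 to 0.653 RPKM) and Aim2 (0.184 to 0.356 RPKM) met at their ends, and those of Ifi203 and Ifi204 overlapped. In Δ/D329A, Aim2 led, and the ranges of Mndal (0 to 0.118 RPKM), Ifi204 (0 to 0.127 RPKM), Ifi203 (0 to 0.0673 RPKM) and Pyhin1 (0 to 0.0861 RPKM) overlapped. The summed level of the 7 members was 0.923 ± 0.166 RPKM (SD, n = 5) in +/+, against 0.520 ± 0.061 RPKM (SD, n = 4) in Δ/D329A. Without Mndal the sums were 0.473 ± 0.039 and 0.449 ± 0.056 RPKM, and these overlapped between the genotypes. Without Mndal and Aim2 they were 0.1935 ± 0.0584 and 0.1251 ± 0.0325 RPKM, from 67 reads in +/+ and 27 in Δ/D329A. These last sums were lower on average in Δ/D329A but overlapped as well.

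How reads were assigned among near-identical members limits these values. The exon length of the Mndal row, 1907 bp, equals that of a transcript with 10 exons in the GENCODE annotation, whose first exon of 37 bp lies at chr1:173942455-173942491 inside exons of Ifi203. Its other 9 exons, 1870 bp in all, lie at chr1:173857221-173879990. Of the windows of 50 bases, the read length, along the Mndal exons, 32.4% also occur elsewhere in the genome, and every one of these 463 windows recurs within the cluster. The share was 31.2% for Ifi203, 35.7% for Pyhin1, 40.7% for Ifi204, 52.6% for Ifi205 and 74.1% for Mnda, but 4.69% for Aim2. Low counts of the duplicated members are therefore uncertain, and whether reads were moved between them was not tested. A legend of the study names an opposite-strand specific kit, but whether the counting used strand is not given in the sources used here, so that values of overlapping genes on opposite strands are uncertain.

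The cluster holds 7 further rows of PYHIN genes, none of which reached the level needed for the fit. AI607873 (Ifi207) had 3, 4, 4, 5 and 6 reads in +/+ and 1, 3, 1 and 1 in Δ/D329A, and the groups overlapped. Pydc4 (Ifi213) had 12 reads in +/+ and 2 in Δ/D329A, counted over all libraries. Pydc3 (Ifi208) had 4, 1, 1, 1 and 1 reads in +/+ and 0 in each Δ/D329A library. Read totals favour +/+, which has 5 libraries of 13381689 to 18386072 reads, against 4 of 10519195 to 14638891 in Δ/D329A. Scaled to depth, mean RPKM in +/+ and Δ/D329A was 0.0802 and 0.0372 for AI607873 and 0.0214 and 0.00525 for Pydc4. For Pydc3 it was 0.0348 and 0. BC094916 (Ifi214) had 3 reads, all in 1 +/+ library, the 2 rows of Gm4955 (Ifi206) held 1 read in each genotype between them, and Ifi202b had 0. Summed, the 7 rows had 0.113 to 0.194 RPKM in +/+ and 0.0258 to 0.0819 RPKM in Δ/D329A, from 46 and 9 reads. The sums did not overlap, but they were described with the other results known and rest on few reads.

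Of the genes around the PYHIN rows, only Cadm3 and Darc had enough reads to compare, and neither was called. Cadm3, a neuronal cell adhesion gene at the Aim2 end of the cluster, was at 17.6 ± 4.04 RPKM (SD, n = 5) in +/+, against 18.6 ± 1.79 RPKM (SD, n = 4) in Δ/D329A, with a limma adjusted p of 0.905. Of the 5 nearest rows before the cluster, Darc, a chemokine-binding receptor, was at 5.01 ± 1.12 RPKM (SD, n = 5) and 3.82 ± 0.53 (SD, n = 4), a log2 difference of −0.38 with a limma adjusted p of 0.355. The other 4 (Olfr1404, Fcer1a, Olfr418-ps1 and Gm11062) and the 5 nearest rows after the cluster (Olfr433, Olfr432, Olfr430, Olfr429 and Olfr427) had 0 to 2 reads in all libraries together. These are too few to show a difference in either direction.

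The 5 genes outside the group whose log2 RPKM was most like that of Mndal over the 9 libraries were Ttn (Pearson r = 0.949), Tmem245 (0.947), Dcx (0.937), BC067074 (0.936) and Col19a1 (0.927). The 9 points fall into the 2 genotypes, so that these values partly restate the difference between them. Dcx, a microtubule-associated gene of young neurons, had a mean of 1.75 RPKM (lowest 1.52) in +/+ and 0.982 RPKM (highest 1.04) in Δ/D329A. Ttn, which encodes the giant muscle protein titin, was at 0.134 to 0.206 RPKM in +/+ and 0.0781 to 0.105 in Δ/D329A. None of the 5 genes lies in the cluster.

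The pathways in which the members act were read from lists of interferon, DNA sensing and cell type genes. None of 34 interferon-stimulated genes tested was called, and their median log2 difference was −0.15, against 0.06 over all genes tested. Ifit1, Ifit2 and Ifit3, which restrict viral RNA, had log2 differences of −0.37, −0.31 and 0.05 with limma adjusted p of 0.749, 0.474 and 0.979. At an unadjusted p under 0.05, 3 genes of this list were lower and 1 was higher, where 538 of all 17839 genes tested were lower and 822 were higher. No called change was found among 13 genes of DNA sensing and the inflammasome (median −0.00) or 14 interferon receptor and Jak-Stat genes (median 0.04), of which 0 and 3 had an unadjusted p under 0.05. With edgeR, none of the genes of these 3 lists was called. Tmem173, which encodes STING, differed by 0.45 (limma adjusted p = 0.589), Tbk1 by −0.12 (0.887) and Irf3 by 0.23 (0.792). The receptor subunits Ifnar1, Ifnar2 and Ifngr1 differed by −0.08, −0.08 and 0.15 (limma adjusted p of 0.920, 0.951 and 0.901).

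In bulk tissue, fewer cells of a type and less RNA per cell cannot be told apart, and the cell type lists are given for that reason. The sum over 15 microglia markers was 49.7 to 107 RPKM in +/+ and 65.2 to 108 in Δ/D329A, with a median log2 difference of 0.30. Cx3cr1, P2ry12 and Tmem119, which define microglia, differed by 0.29, −0.22 and 0.34 (limma adjusted p of 0.641, 0.646 and 0.722). The summed level of microglia markers thus lay in much the same range in both genotypes. The sum over 15 markers of blood and border leukocytes was 2.39 to 6.74 RPKM in +/+ and 4.93 to 10.7 in Δ/D329A, and the median log2 difference of the 8 tested was 0.75. Of these 8, 5 were higher at an unadjusted p under 0.05 and none was lower. Of all genes tested, 822 were higher and 538 lower. Among the 5 markers, S100a8 and Camp were at 0 in all +/+ libraries. Camp had a median of 0 RPKM in Δ/D329A too and met the limit of the fit only through values deposited for libraries without a read. Itgax reached 0.1 RPKM in Δ/D329A only. Cd3g, without a read in any library, still differed by 0.37 on the log2 scale. The count and the median are therefore not free of these deposited values.

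Ptprc, Lyz2 and Mrc1, the first leukocyte markers of the list that were tested, differed by 0.82, 0.69 and 0.03 (limma adjusted p of 0.355, 0.390 and 0.990). The T cell gene Cd3g was at 0 in all libraries, and Cd3e and the B cell gene Cd79a were at 0 in Δ/D329A. The smallest limma adjusted p of the lists, 0.0148, belonged to S100a9 (log2 difference 2.99) and Itgax (2.13), which mark neutrophils and dendritic cells, and both genes were singled out after their values were seen. The part of these cells in the level of Mndal was not tested.

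Among the other lists, none held a gene called by limma, while edgeR called the neuronal genes Cartpt and Sim1 as lower. At an unadjusted p under 0.05, limma gave 2 endothelial genes and 1 astrocyte gene as higher and none as lower. In the same way 2 oligodendrocyte genes, 4 neuron genes and 1 of the Dnmt and Tet genes were lower and none was higher. Of all genes tested, 822 were higher and 538 lower. The median log2 difference was 0.15 over 12 endothelial genes (Cldn5 0.26, Pecam1 0.15, Flt1 0.05), 0.15 over 8 astrocyte genes (Gfap 0.61, Aqp4 0.09, Aldh1l1 0.23) and −0.26 over 8 oligodendrocyte genes (Mbp −0.02, Mog −0.20). Hypothalamic neuron markers, which check the tissue, were abundant in both genotypes, with sums of 449.6 to 942 RPKM in +/+ and 507 to 732 in Δ/D329A and a median log2 difference of −0.06 (Pomc −1.06, Agrp 0.14, Npy −0.70). Of the Dnmt and Tet genes, Dnmt3a was at 3.28 to 4.31 RPKM in +/+ and 2.84 to 3.30 in Δ/D329A (log2 difference −0.28, limma adjusted p = 0.355), Dnmt1 differed by 0.13 and Tet1 by −0.35.

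**Figure D2:**
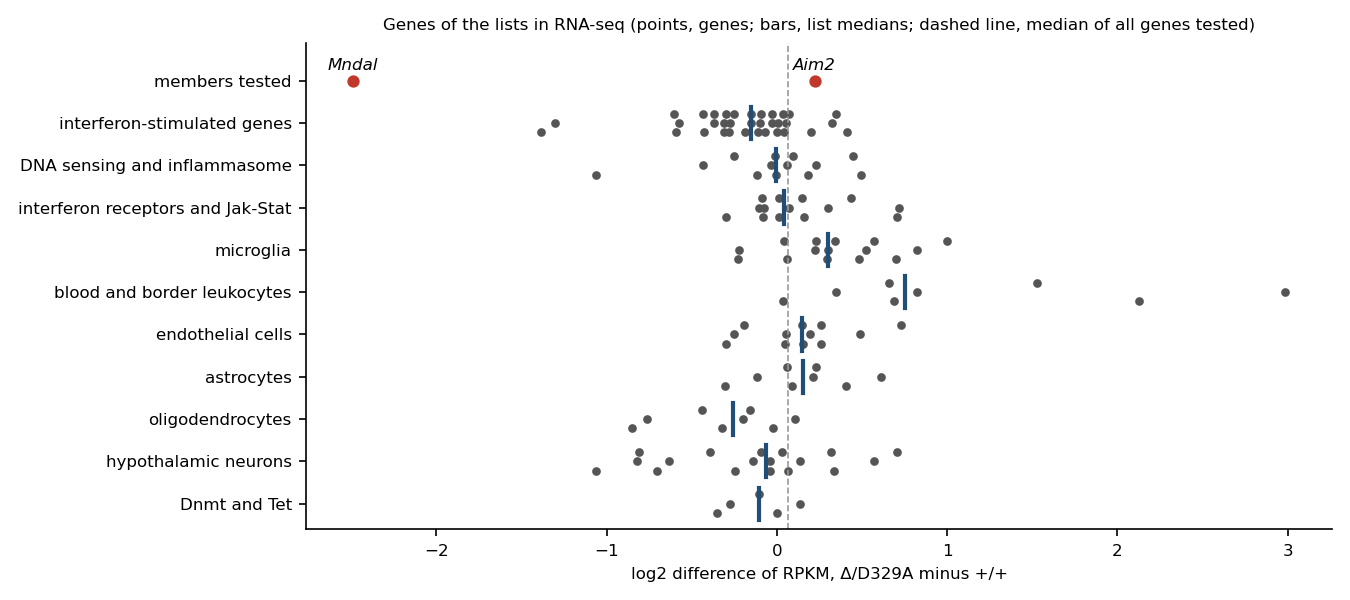
Log2 difference of RPKM (Δ/D329A minus +/+) of each gene tested in the lists, with blue bars at list medians, a dashed line at the median of all genes tested (0.06) and the members tested in red. Mndal lies at −2.49 and Aim2 at 0.22, while the list medians lie between −0.26 and 0.75.

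Histone marks and input are measures that the choice of members did not use. H3K4me3 marks active promoters, H3K27me3 is deposited by Polycomb, and H3K36me3 covers transcribed gene bodies. The study names H3K36me3 as the putative target of the PWWP domain of DNMT3A. Values are RPM (reads in a tile scaled to the size of the library) in tiles of 2000 bp, averaged over promoters (1500 bp upstream and 500 bp downstream of the row's start) or gene bodies. Differences were tested with limma over all promoters or bodies. None of the 7 members was called for any mark or for input, also with edgeR on recovered reads. The background was equally low, since 0% of 25952 promoters were called for H3K4me3, 0% for H3K27me3 and 0% for input, and 0% of 23657 gene bodies for H3K36me3 and 0% for input. At an unadjusted p under 0.05, limma gave 900 promoters for H3K4me3, 2310 for H3K27me3 and 1285 for input, and 3814 gene bodies for H3K36me3 and 1468 for input.

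At the promoter of the Mndal row, H3K4me3 was 1.27, 0.998 and 0.723 RPM in +/+ and 1.41, 1.66 and 0.742 RPM in Δ/D329A. The groups overlapped, and the log2 difference was 0.29 (95% interval −0.79 to 1.36, limma adjusted p = 1). These levels lie below the median of all promoters, 5.28 RPM. The start of this row, however, coincides with a start of Ifi203 and is 62304 bp from the RefSeq start of Mndal at 173880187, which was therefore added after the data had been seen. There, H3K4me3 was 2.09, 0.998 and 0.558 RPM in +/+ and 1.04, 1.62 and 0.323 RPM in Δ/D329A. The libraries of 1 genotype differed from each other by more than the genotypes did, and the log2 difference was −0.31 (95% interval −2.03 to 1.40, limma adjusted p = 1). Of 32851 RefSeq starts, 0% were called for H3K4me3, 0% for H3K27me3 and 0.00304% for input.

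H3K36me3 over the body of the Mndal row was 0.559, 0.436 and 0.427 RPM in +/+ and 0.470, 0.465 and 0.499 RPM in Δ/D329A, a log2 difference of 0.02 (95% interval −0.27 to 0.31, limma adjusted p = 0.968). Because this row spans Mnda and Ifi203, the RefSeq gene (chr1:173857215-173880382) was read as well. It held 0.717, 0.515 and 0.530 RPM in +/+ and 0.508, 0.481 and 0.575 RPM in Δ/D329A, with a log2 difference of −0.14 (95% interval −0.49 to 0.22, limma adjusted p = 0.757). The genotypes overlapped in both regions. Among 43200 RefSeq genes, 0.0139% were called for H3K36me3 and 0% for input. H3K27me3 at the promoter of the Mndal row was 0.315, 0.540 and 0.496 RPM in +/+ and 0.471, 0.592 and 0.508 RPM in Δ/D329A (log2 difference 0.20, limma adjusted p = 0.856), close to the median of all promoters of 0.492 RPM.

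**Figure D3:**
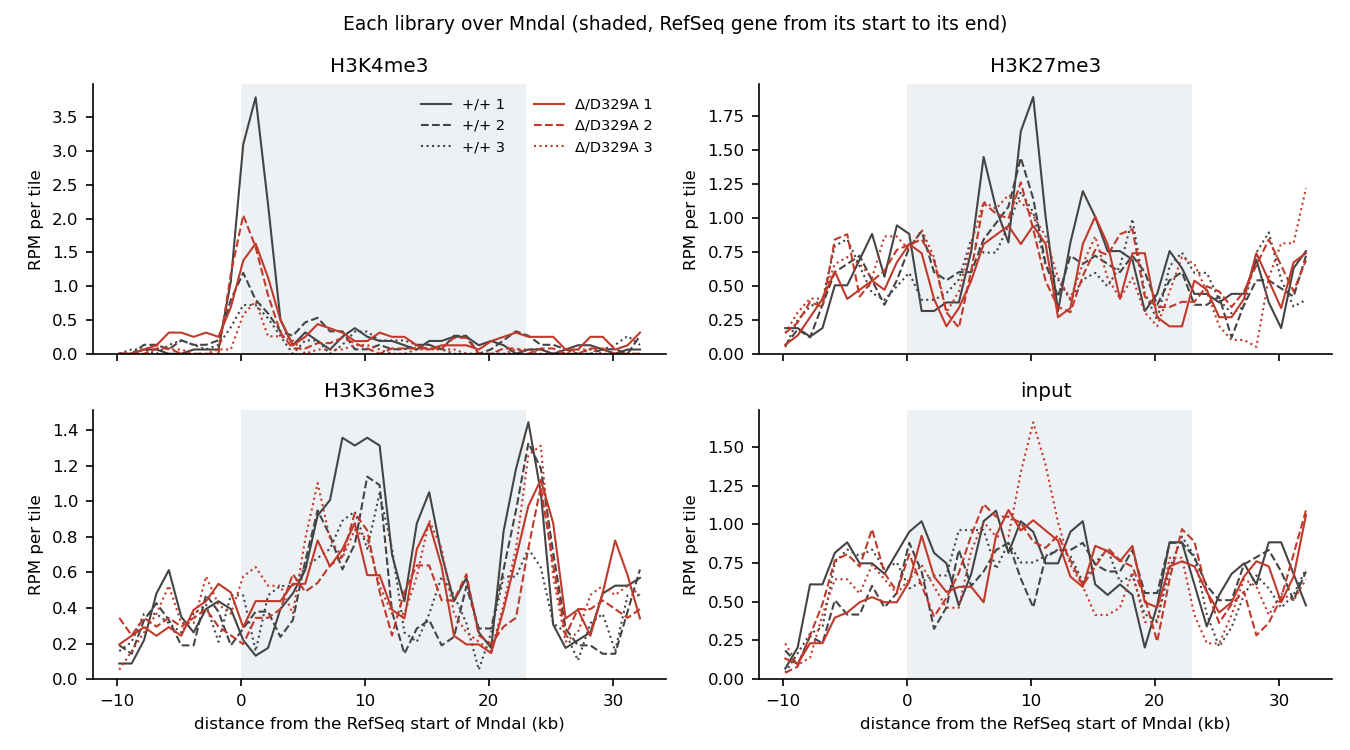
RPM of each mark and of input per tile against the distance from the RefSeq start of Mndal (kb, in the direction of transcription), with 1 line per library, +/+ in grey and Δ/D329A in red, and the RefSeq gene shaded. A small H3K4me3 peak stands at the start in libraries of both genotypes and varies within them, and the H3K36me3 and input lines of the genotypes run together over most of the gene.

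Input tells whether DNA of the locus was recovered and mapped alike in both genotypes. Over the RefSeq gene of Mndal it was 0.774, 0.717 and 0.735 RPM in +/+ and 0.754, 0.769 and 0.766 RPM in Δ/D329A, with a log2 difference of 0.04 (95% interval −0.10 to 0.17, limma adjusted p = 0.964). At the RefSeq start it was 0.884, 0.718 and 0.670 RPM in +/+ and 0.563, 0.686 and 0.599 RPM in Δ/D329A (log2 difference −0.26, limma adjusted p = 0.947). The DNA of Mndal was thus present at overlapping levels in both genotypes. Bases that differ between strains cannot be seen in these read counts and were not analysed here.

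For Aim2, H3K27me3 at the row's promoter was 0.661, 0.510 and 0.397 RPM in +/+ and 0.740, 0.764 and 0.863 RPM in Δ/D329A. Every Δ/D329A library was above every +/+ library, but the log2 difference of 0.53 (95% interval 0.00 to 1.06) was not called (limma adjusted p = 0.561). H3K4me3 there was 1.90, 1.63 and 2.04 RPM in +/+ and 1.60, 1.42 and 1.39 RPM in Δ/D329A, again without overlap (log2 difference −0.31, limma adjusted p = 1). The share of all promoters without overlap was not counted, so that both separations are description only. The row's promoter lies within Cadm3, and at the RefSeq start of Aim2 (173420604) both marks overlapped between the genotypes, with log2 differences of −0.50 for H3K27me3 (limma adjusted p = 0.726) and −0.26 for H3K4me3 (limma adjusted p = 1). H3K36me3 over the Aim2 body was 0.671 ± 0.032 RPM (SD, n = 3) in +/+, against 0.612 ± 0.016 RPM (SD, n = 3) in Δ/D329A, and the log2 difference was −0.12 (95% interval −0.29 to 0.06, limma adjusted p = 0.494).

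The remaining members showed no called difference either. Over the 7 members, log2 differences at promoters ran from −0.31 to 0.48 for H3K4me3 and from −0.12 to 0.53 for H3K27me3, and those over bodies from −0.12 to 0.26 for H3K36me3. For H3K36me3 the smallest limma adjusted p, 0.316, was that of Pyhin1, with 0.566, 0.533 and 0.494 RPM in +/+ and 0.587, 0.639 and 0.689 RPM in Δ/D329A. H3K4me3 was low at the promoters of Ifi205 (means of 0.131 RPM in +/+ and 0.158 RPM in Δ/D329A) and Pyhin1 (0.218 and 0.195 RPM). Input differed most at the Pyhin1 promoter, with 0.850, 0.857 and 0.837 RPM in +/+ and 0.695, 0.727 and 0.323 RPM in Δ/D329A (log2 difference −0.54, limma adjusted p = 0.926). The lowest of these values came from a single Δ/D329A library.

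**Figure D4:**
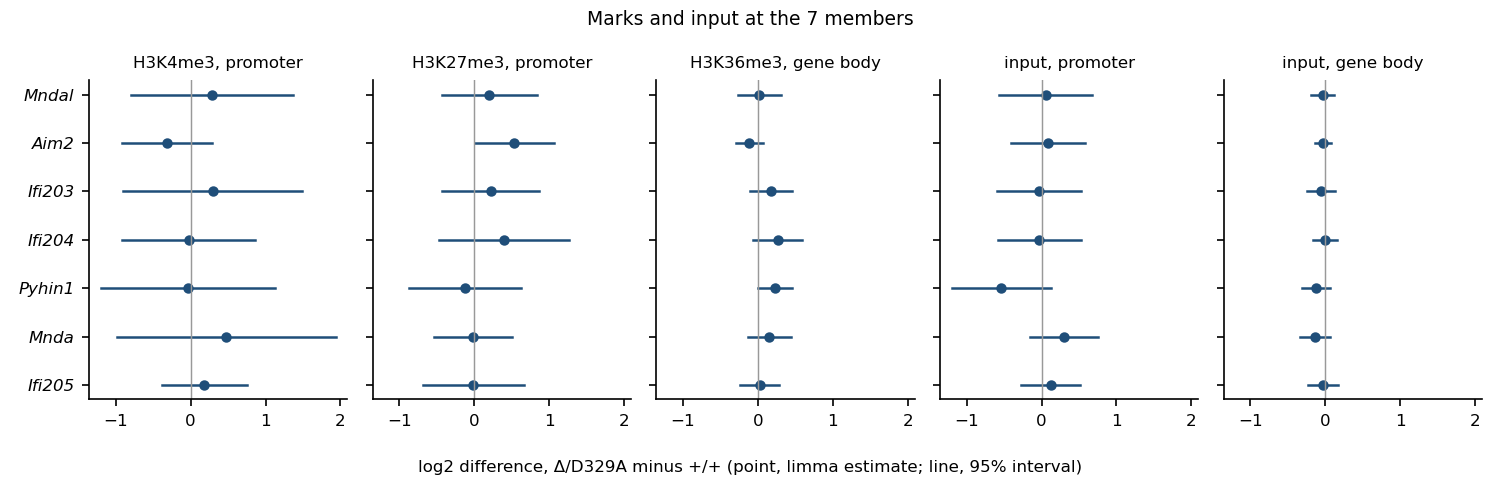
Log2 difference (Δ/D329A minus +/+, of RPM plus 0.1) of each mark and of input at the 7 members, with points at the limma estimates and lines at 95% intervals (3 libraries per genotype). Regions are those of the expression rows, so that the promoter of the Mndal row lies at a start of Ifi203 and not at the RefSeq start of Mndal. The Mndal estimates lie between −0.03 and 0.29, and the intervals of H3K4me3 are the widest for all members but Ifi205.

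Over the whole cluster the genotypes differed by less than the SD of either for H3K4me3, H3K27me3 and input. For H3K36me3 the difference of 0.0284 RPM was below the SD of +/+ but above that of Δ/D329A. The mean over the tiles of the cluster was 0.420 ± 0.016 RPM in +/+ and 0.407 ± 0.052 in Δ/D329A for H3K4me3. It was 0.722 ± 0.036 and 0.732 ± 0.033 for H3K27me3, and 0.575 ± 0.040 and 0.604 ± 0.0056 for H3K36me3 (SD, n = 3 each). Input was 0.756 ± 0.012 and 0.747 ± 0.015 RPM (SD, n = 3 each). Exact permutation tests, two-sided, gave p = 0.8, 0.7, 0.3 and 0.5 in this order, where 3 against 3 libraries cannot go below 0.1. In 34 windows of 20 kb, the mean of input in Δ/D329A differed from that in +/+ by between −14.1% and 11.5%, and no window lacked reads in 1 genotype. Tiles with little input (under 0.25 of the genome median) made up 3.38% of the cluster (23 tiles) and 10.2% of the genome.

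No single tile of the cluster was called either, of 673 to 680 tested per assay. Over the genome, 0.0619% of 2527625 tiles were called for H3K4me3, 0.0212% of 2565096 for H3K27me3, 0.00208% of 2551875 for H3K36me3 and 0% of 2569647 for input. The share of tiles with an unadjusted p under 0.05 was 1.04% in the cluster and 2.22% in the genome for H3K4me3, 4.27% and 6.34% for H3K27me3, 7.08% and 6.26% for H3K36me3, and 4.28% and 5.08% for input. The share was lower in the cluster than in the genome for 3 of the assays and higher for H3K36me3.

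One of the lowest p of H3K36me3 in the cluster belonged to a tile inside Mndal, chr1:173868001-173870000. It held 1.31, 1.09 and 1.05 RPM in +/+ and 0.584, 0.492 and 0.525 RPM in Δ/D329A. The genotypes did not overlap there, and the log2 difference was −0.98 (standard error 0.26). The share of all tiles without overlap was not counted. Its limma adjusted p was 0.525, so that it was not called, and it was picked for its low p from the tiles of the cluster. The lowest, at chr1:173355001-173357000 in Cadm3 and the Aim2 row, had a limma adjusted p of 0.330. For H3K4me3 the highest tile, chr1:173366001-173368000 at the start of Cadm3, held 32.8 to 51.3 RPM and overlapped between the genotypes, far above the start of Mndal.

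**Figure D5:**
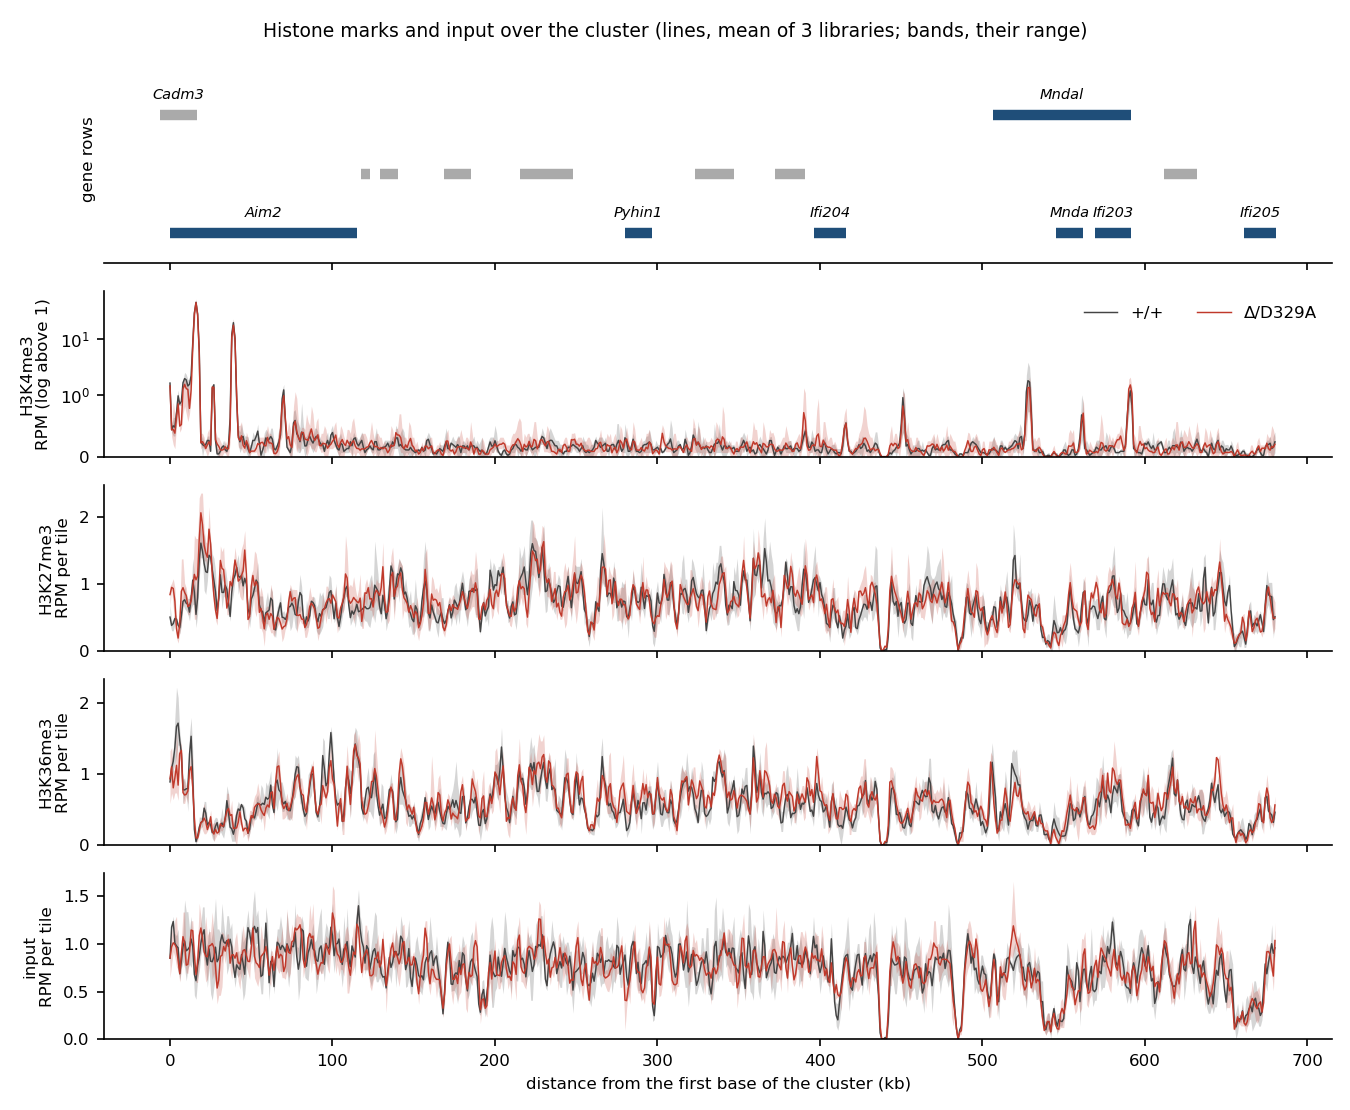
RPM per tile of each mark and of input against the distance from the first base of the cluster (kb), with lines at the mean of 3 libraries, bands over their range, +/+ in grey, Δ/D329A in red, members as blue bars and other rows as grey bars; the H3K4me3 axis is logarithmic above 1 RPM. The ranges of the genotypes overlap along most of the cluster but not in every tile, such as the H3K36me3 tile inside Mndal, and stretches of low signal in input are low in the marks of both genotypes.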

How the data were processed

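Adult hypothalamus was measured by RNA-seq in 5 +/+ and 4 Δ/D329A animals and by ChIP-seq for H3K4me3, H3K27me3, H3K36me3 and input in 3 animals of each genotype. For RNA-seq, the authors trimmed 50 bp reads with Trim Galore (0.4.3 in the submitters' processing notes), mapped them to GRCm38 with HISAT2 (2.0.5), quantified them over exons with SeqMonk and deposited log2 RPKM. A library without a read is deposited at 0.9 reads. For ChIP-seq, the authors mapped native MNase ChIP reads with Bowtie (Bowtie2 2.3.2 in the notes), and deposited a signal that counts reads in tiles of 2000 bp, placed every 1000 bp, and scales them to library size (RPM); no input was subtracted. ChIP-seq and input values rest on uniquely mapped reads, whereas for RNA-seq the treatment of reads with several matches is not given in the sources used here. Whole read counts were recovered from the deposited values of 99.99% of the expression rows, within 0.02 reads, and of all tiles used. The total behind a value was 10519195 to 18386072 reads in RNA-seq libraries, of which 3799686 to 9768735 fell on genes, and to 12676361 to 30207875 reads per ChIP-seq or input library.

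Log2 RPKM was compared with limma 3.58.1 (R 4.3.3), with a trend of the variance on the mean, over genes that reached 0.1 RPKM in 4 or more libraries, and called where the Benjamini-Hochberg adjusted p was under 0.01. Libraries without a read entered this limit and the fit at their deposited value. Tiles whose centre lies in a region were averaged and log2 of RPM plus 0.1 was compared with limma at an adjusted p under 0.05. All p are two-sided and measure the spread between animals. Alternatives used edgeR 4.0.16 on recovered reads, other pseudocounts, limits, scalings, regions and blocks, and libraries left out in turn. Fits were tested on simulated data. Sequences come from RefSeq (GRCm38.p6). Figures were made with Python 3.11.15 and matplotlib 3.10.9.

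The members and lists were chosen with earlier results of these data known. Genes named are all members, the other rows in the cluster, the 5 nearest rows on each side, the 5 genes most correlated with Mndal, list genes that were called and the first 3 tested of each list, 1 of which is not reported here. Bisulfite data were not analysed here.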

Additional observations from a re-analysis of the deposited data

Results flagged for a closer look

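Among 25 groups of libraries, of rows in the cluster and of sums of such rows, a library stood far from the others of its genotype in 2. Chance flags about 1 in 20 groups of normally spread values, and low read counts are not spread in that way. Pydc3 was at 0.0789 RPKM in +/+ replicate 1, from 4 reads, while the other +/+ libraries had 1 read each. AI607873 was at 0.0819 RPKM in Δ/D329A replicate 2, from 3 reads, while the other Δ/D329A libraries had 1 read each. Both rest on differences of 2 or 3 reads.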

How the results depend on the processing

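Under every alternative run, 0 of the 7 members was called for a mark or for input and 0 tiles of the cluster were called. The log2 difference of Mndal, −2.49, was −1.58 with 0.1 RPKM added, −0.42 with 1 RPKM added and −2.69 to −2.23 without 1 library at a time, and Mndal is not in the fit at a limit of 0.5 RPKM. The number of genes called in RNA-seq (19, of which 4 lower) was 77 (37 lower) with edgeR, 34 (12) with median centring, 32 (16) with quantile normalization and 11 (1) at 0.5 RPKM. Genes called lower were 2 with no limit, 2 with 1 RPKM added and 1 with the replicate block. Without 1 library at a time, 1 to 19 genes were called, 0 to 1 of them lower.

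List genes called (0) were 1 at 0.5 RPKM, 1 with 0.1 RPKM added, 1 with the replicate block, 2 with median centring and 2 with quantile normalization (S100a9, higher, or Cartpt, lower), 2 with edgeR (Cartpt and Sim1, lower), and 0 to 1 without 1 library.

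Promoters called for H3K4me3 (0) were 146 with edgeR, 28 with median centring, 31 with quantile normalization and 1 with 0.02 RPM added. For H3K27me3 (0) they were 252, 54, 147 and 8, and for input (0) 5 with median centring, 1 with quantile normalization, 7 with 0.02 RPM added, 1 with promoters of 1000 bp on each side, 1 at RefSeq starts and 0 to 16 without 1 library. Gene bodies called for H3K36me3 (0) were 160 with edgeR, 3 with 0.02 RPM added, 2 from start to end, 6 for RefSeq genes and 0 to 4 without 1 library, and for input (0) 3 with edgeR. Tiles called in the genome for H3K4me3 (1565) were 41 with median centring, 561 with the replicate block and 0 to 512 without 1 library. For H3K36me3 (53) they were 97 with 0.5 RPM added, 7 with the block and 0 without any 1 library, for H3K27me3 (545) 0 to 5 without 1 library, and for input (0) 2 with the block.

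Without 1 library at a time, the difference of the cluster means ranged from −9.40% to 3.01% for H3K4me3, −0.85% to 4.47% for H3K27me3, 1.02% to 8.14% for H3K36me3 and −2.18% to −0.20% for input. Of 35 uncalled differences at members, 16 changed sign under at least 1 alternative, the largest of them 0.12 in the fit reported. Replicate numbers did not pair the animals (correlation of same-numbered deviations −0.054 to 0.137 in RNA-seq and −0.261 to 0.235 in ChIP-seq). The causes of these changes were not tested. Depth limits what the members show: of 7 members, 5 did not reach 0.1 RPKM in 4 libraries, and at most 5 animals stand behind a mean.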
